A study of Mus musculus with 48 samples.

Results

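The genes described here are the 3 D-type cyclins (Ccnd1, Ccnd2 and Ccnd3), their kinase partners Cdk4 and Cdk6, the CIP/KIP inhibitors Cdkn1a, Cdkn1b and Cdkn1c, and the retinoblastoma gene Rb1. They were taken by gene symbol, and all 9 were found among the 47643 Ensembl genes of the count tables. The set was chosen by measured counts in part, since Ccnd2 ranked among the 3 most abundant genes of a PAP library. Its values are therefore a description with no test. Ribosome-bound RNA was purified from the mouse dorsal hippocampus by translating ribosome affinity purification (TRAP), in which tagged ribosomes are pulled down with an antibody and the RNA on them is sequenced. Every mouse carried the Tg(Aldh1l1-eGFP/Rpl10a) JD130Htz transgene, so both groups share it, and a GFP antibody was used throughout. The tag was driven by the Aldh1l1 promoter, which sets the cells that carry it. The part of RNA from other cells in the pulldown was not tested. The groups were Astro (full astrocytes) and PAP (perisynaptic astrocytic processes, the fine branches of astrocytes beside synapses), with no treatment named. The labels number the samples of both groups C1 to C3, read here as animals 1 to 3. Each gave both groups as 8 technical replicates, 48 files in all, which were summed into 6 libraries. Age and sex of the mice and the way the processes were separated are not given in the sources used here.

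In the G1 phase, mitogenic signals raise the D-type cyclins, which activate Cdk4 or Cdk6. The active kinases phosphorylate the retinoblastoma protein and its relatives, which releases E2F transcription factors and opens the way to DNA synthesis, while p21 (Cdkn1a), p27 (Cdkn1b) and p57 (Cdkn1c) bind and restrain cyclin and kinase complexes. In the adult hippocampus Ccnd2 is known for its role in the division of neural progenitors, and mature astrocytes are mostly out of the cell cycle.

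The short coding stretches below are shown because the named partners meet through them. In the D-type cyclins the capitals mark the codons of an LxCxE motif, by which proteins dock on the retinoblastoma pocket. In the CIP/KIP inhibitors the capitals mark the codons of an RxLFG motif, through which the inhibitors bind cyclins. Each line is the coding strand from 5′ to 3′, read from GENCODE M21 transcripts on GRCm38.
Ccnd1: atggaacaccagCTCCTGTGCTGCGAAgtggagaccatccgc
Ccnd2: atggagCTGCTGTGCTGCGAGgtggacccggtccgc
Ccnd3: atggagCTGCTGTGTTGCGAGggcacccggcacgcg
Cdkn1a: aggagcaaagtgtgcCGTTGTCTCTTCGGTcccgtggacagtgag
Cdkn1b: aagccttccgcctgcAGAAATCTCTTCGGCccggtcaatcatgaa
Cdkn1c: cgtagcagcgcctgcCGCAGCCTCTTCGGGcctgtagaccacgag

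The cyclin stretches lie in coding exon sequence at chr7:144939652-144939693 on the minus strand (Ccnd1, exon 1), chr6:127150738-127150773 on the minus strand (Ccnd2, exon 1) and chr17:47593655-47593690 on the plus strand (Ccnd3, exon 3 of its transcript). The inhibitor stretches lie at chr17:29098444-29098488 on the plus strand (Cdkn1a, exon 2), chr6:134920992-134921036 on the plus strand (Cdkn1b, exon 1) and chr7:143460582-143460626 on the minus strand (Cdkn1c, exon 2). Each motif matched 1 time in its coding sequence. Over their whole coding sequences Ccnd2 was 65.9% identical to Ccnd1 and 65.9% identical to Ccnd3, with longest identical runs of 20 and 14 bases. Cdk4 and Cdk6 were 62.6% identical, with a longest identical run of 20 bases. Stretches of 50 exonic bases that also occur in another gene made up 6.31% of those of Ccnd2, 21.6% of those of Ccnd1, 17.01% of those of Cdk4 and 24.9% of those of Cdkn1c.

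Astro libraries held 18707844 to 20293538 counts and PAP libraries 1829962 to 2980984, so PAP values were less precise. The level of 3 counts, used here as the floor of detection, corresponded to 0.152 to 0.175 CPM (counts relative to library totals after TMM scaling) in Astro and 0.987 to 1.54 CPM in PAP. All 15 astrocyte markers in the list used here were tested, and 14 of them were above the floor in every PAP library. Their summed level was 29810 to 39844 CPM in Astro and 4772 to 17054 CPM in PAP. Each of the 15 had all PAP values below all Astro values, where 35.1% of all tested genes did so. By edgeR's quasi-likelihood test 7 of them fell in PAP. None of these kept its call with the animal as a block (adjusted p from 0.121 to 0.206). At an unadjusted p under 0.05, 13 fell. Of the alternative tests, DESeq2 called 13 lower, where 3456 of all 14618 tested genes fell, and voom called 2. Of 14618 genes tested, 865 rose and 2250 fell in PAP, which is 5.92% and 15.4% of the genes. Over all tested genes the log2 fold change had a median of -0.53. With the animal as a block, 133 genes were called (0.91%), and leaving out any 1 Astro library left 115 to 140.

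Ccnd2 was the most abundant member in PAP and among its most abundant genes of all. It encodes cyclin D2 and spans chr6:127125162-127152193 on the minus strand. In Astro it stood at 131, 127 and 177 CPM in animals 1 to 3, and in PAP at 9063, 6530 and 5799 CPM. Every PAP library lay far above every Astro library, and that of animal 1 was the highest. The mean was 145 ± 27.4 CPM in Astro and 7131 ± 1713 CPM in PAP (SD, n = 3), a ratio of 49.2. On the log2 scale the fitted difference was 5.62, and it stayed between 5.37 and 5.83 over 17 alternative ways of processing. By count, Ccnd2 was gene number 1721, 1762 and 1122 in the Astro libraries and number 3, 3 and 7 in the PAP libraries. The library of animal 3 was thus just outside the 3 most abundant, and the next member, Cdk4, followed at rank 434, 459 and 321. In bulk pulldowns, fewer cells or processes of a type and less RNA in each of them cannot be told apart.

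The 8 technical replicates of each PAP library gave nearly the same Ccnd2 value. Before TMM scaling they ran from 9614 to 9885 CPM in animal 1, from 6725 to 7178 in animal 2 and from 5778 to 6049 in animal 3. A dispersion index, which is 1 for pure counting noise, was 0.209, 0.955 and 0.50 for these libraries. The high level was present in every technical replicate. Technical replicates share 1 animal and compartment, so their likeness says nothing of the spread between animals. Exons of 2 genes on the opposite strand, 9330179D12Rik and Gm43126, cover 7.87% of the exonic bases of Ccnd2, and the libraries do not mark strand. Gm43126 had 227, 207 and 264 counts in Astro and 1691, 1905 and 2053 in PAP, against 17850, 12732 and 17633 counts of Ccnd2 in PAP.

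Some marker genes of B-lineage, plasma and cycling cells rose in PAP with Ccnd2, and others did not. Of 14 B-lineage and plasma cell markers, 11 were tested, 7 rose in PAP (Ms4a1, Jchain, Mzb1, Igkc, Xbp1, Irf4 and Sdc1) and 1 fell (Ighm). Over all tested genes, 5.92% rose and 15.4% fell. Ms4a1 and Sdc1 passed the filter on low counts only through PAP and Ighm only through Astro. Each of them could be called in no other direction. With the animal as a block, 4 of these calls held (Jchain, Mzb1, Igkc and Irf4), and the adjusted p was 0.206 for the others. The summed level of the list was 274 to 398 CPM in Astro and 3233 to 7137 CPM in PAP. Cd38 was lower in PAP in 3 of 3 animals with no overlap and was not called. Of the same list, Pax5 was at 0 in all 6 libraries, and Cd79a and Ighm were at 0 in all 3 PAP libraries. Cd79b held 12, 5 and 0 counts in Astro and 81, 27 and 6 in PAP. It was higher with no overlap and was not called. Of 21 cycling cell markers, 19 were tested. By edgeR's quasi-likelihood test 4 rose (Top2a, Plk1, Birc5 and Rrm2), against 5.92% of all tested genes, and none fell, against 15.4%. At an unadjusted p under 0.05, 9 rose and none fell. By DESeq2, 13 rose and none fell, where 1685 of all 14618 tested genes rose. The median log2 fold change of the list was 3.63. Top2a and Plk1 passed the filter on low counts only through PAP and could be called in no other direction. None of the 4 was called with the animal as a block (adjusted p from 0.0685 to 0.206). The summed level of the list was 136 to 164 CPM in Astro and 645 to 1443 CPM in PAP, and Bub1 was at 0 in all PAP libraries. Pcna stood at 55.9, 40.1 and 46.5 CPM in Astro and at 39.6, 0 and 8.55 CPM in PAP. It was lower in 3 of 3 animals with no overlap. Mki67 held 64, 1 and 0 counts in the PAP libraries. Neither Pcna nor Mki67 was called. Ccna2, Ccnb1, Ccnb2, Cdk1 and Tyms were higher in PAP with no overlap and were not called either. The PAP library of animal 1 had the highest Ccnd2, the highest sum of both lists and the lowest sum of astrocyte markers. The part of these cells in the level of Ccnd2 was not tested.

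**Figure D1:**
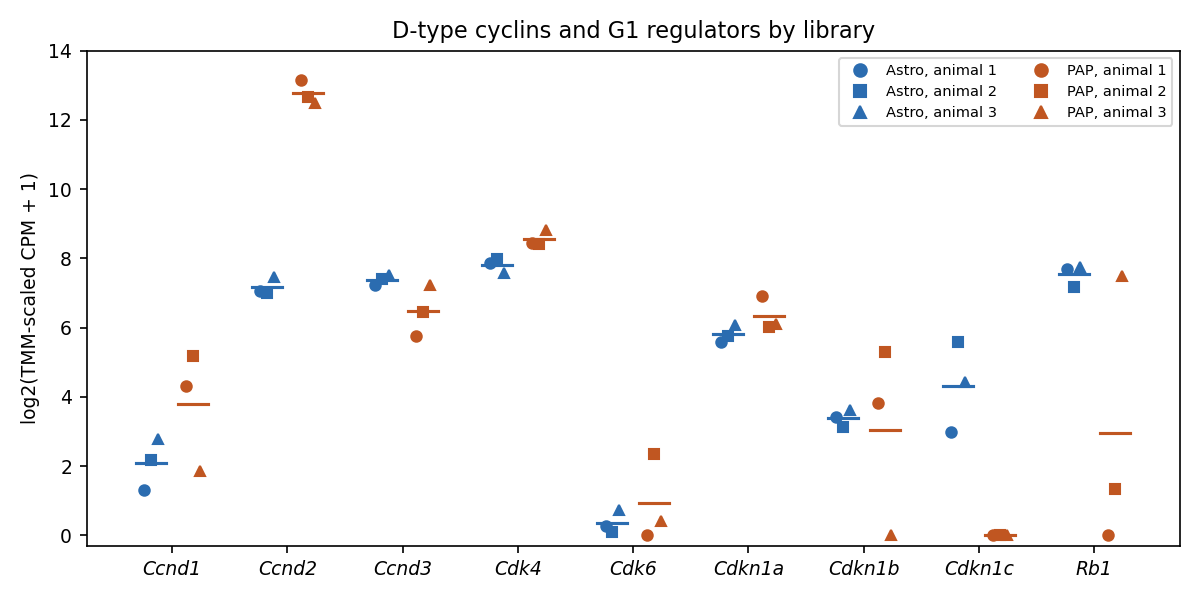
Level of each of the 9 genes in each library, as log2 of TMM-scaled CPM plus 1; points are animals, blue for Astro and orange for PAP, and bars are means of the plotted log values (n = 3). Ccnd2 stands alone at the top in PAP, Cdkn1c is at 0 in all 3 PAP libraries, and Rb1 is near its Astro level in 1 PAP library and at or near 0 in the others.

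The other D-type cyclins had other patterns. Ccnd1, which encodes cyclin D1 (chr7:144929931-144939925, minus strand), was the scarcest of the 3. It stood at 1.497, 3.56 and 5.91 CPM in Astro and at 18.8, 35.4 and 2.63 CPM in PAP. The PAP library of animal 3 fell among the Astro values, and the other PAP libraries were above them. For Ccnd1 the log2 fold change was 2.37 ± 1.21 (SE), with an adjusted p of 0.255 by edgeR's quasi-likelihood test with Benjamini-Hochberg adjustment, and PAP was higher in 2 of 3 animals. That PAP library held 8 counts of Ccnd1. LTO1 on the opposite strand covers 23.4% of the exonic bases of Ccnd1 and had 68, 93 and 32 counts in the PAP libraries of animals 1 to 3, more than the 37, 69 and 8 of Ccnd1 in each.

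Ccnd3, which encodes cyclin D3 (chr17:47505051-47599691, plus strand), was lower in PAP in every animal but did not pass the test. It stood at 151, 169 and 181 CPM in Astro and at 53.3, 86.7 and 149 CPM in PAP. All PAP values were below all Astro values, although that of animal 3 lay just under the lowest. For Ccnd3 the log2 fold change was -0.79 ± 0.47 (SE), with an adjusted p of 0.330 by the same test. Without the PAP library of animal 3 the log2 fold change was -1.32, with an adjusted p of 0.0502.

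Ccnd3 had the largest share of the cyclin D counts per kilobase in Astro, and Ccnd2 made up nearly all of those in PAP. The size of the Astro shares depended on the length used. Per kilobase of merged exons, Ccnd2 took 44.4%, 40.3% and 46.1% in the Astro libraries of animals 1 to 3. In the PAP libraries its share was 99.0%, 97.6% and 97.2%. Ccnd3 took 54.6%, 57.5% and 50.8% in Astro and 0.62%, 1.39% and 2.68% in PAP. Ccnd1 never exceeded 3.09%. Merged exons of Ccnd3 hold 8775 bases and its APPRIS principal transcript 2113, against 9409 and 6330 for Ccnd2. Per kilobase of principal transcript, a choice made after seeing the data, Ccnd2 took 22.2% ± 2.2 in Astro and 95.4% ± 2.57 in PAP, and Ccnd3 took 76.9% ± 2.39 and 4.22% ± 2.73 (SD, n = 3). These shares follow in part from the high level of Ccnd2 that entered the choice of genes, so they are a description.

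**Figure D2:**
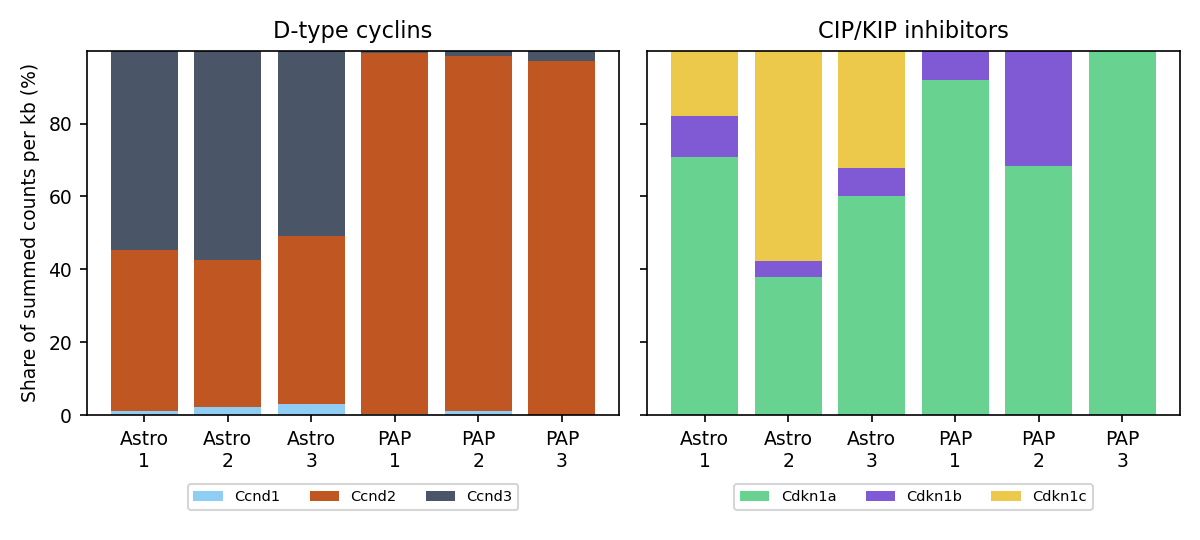
Shares in percent of the summed counts per kilobase of exonic length, per library, for the 3 D-type cyclins (left) and the 3 CIP/KIP inhibitors (right). Ccnd2 takes 40.3% to 46.1% in Astro and 97.2% to 99.0% in PAP, and Cdkn1c takes 17.9% to 57.7% in Astro and none in PAP.

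Cdk4 was the kinase partner measured in both groups, and Cdk6 was at the edge of detection. Cdk4 (chr10:127063534-127067920, plus strand) encodes a kinase activated by D-type cyclins. It stood at 234, 254 and 190 CPM in Astro and at 344, 339 and 454 CPM in PAP. All PAP values were above all Astro values and PAP was higher in 3 of 3 animals. For Cdk4 the log2 fold change was 0.74 ± 0.28 (SE), with an unadjusted p of 0.0333 and an adjusted p of 0.119 by edgeR's quasi-likelihood test. DESeq2's Wald test, an alternative, gave an adjusted p of 0.000595, and no other alternative called Cdk4. Tspan31 on the opposite strand covers 19.7% of the exonic bases of Cdk4, with 2647 to 5405 counts in Astro and 223 to 345 in PAP.

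Cdk6 (chr5:3341485-3531008, plus strand) encodes the second kinase of the pair. It had 4, 1 and 13 counts in Astro and 0, 8 and 1 in PAP, too few to enter the test. A level of Cdk6 under 0.987 to 1.54 CPM, depending on the library, was not detectable in PAP at this depth. Cdk4 made up at least 99.7% of the summed counts per kilobase of both kinases in every library.

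Of the CIP/KIP inhibitors, Cdkn1c was missing from PAP, and the other two had overlapping or uneven values. Cdkn1a (chr17:29090976-29100727, plus strand) encodes p21, a transcriptional target of p53. It stood at 47.3, 53.4 and 67.1 CPM in Astro and at 119, 64.1 and 67.4 CPM in PAP. Only the PAP library of animal 1 stood clearly above the Astro range, and the groups overlapped. Its log2 fold change was 0.58 ± 0.50 (SE), with an adjusted p of 0.533 by edgeR's quasi-likelihood test, and PAP was higher in 3 of 3 animals.

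Cdkn1b (chr6:134920401-134925513, plus strand) encodes p27, an inhibitor typical of resting cells. It stood at 9.68, 7.77 and 11.2 CPM in Astro and at 13.2, 38.0 and 0 CPM in PAP. The PAP libraries thus lay on both sides of the Astro values, and the 0 of animal 3 was found in all 8 technical replicates, where 3 counts would be 0.987 CPM. Its log2 fold change was 0.83 ± 1.65 (SE), with an adjusted p of 0.810 by the same test. Its direction depended on the fit, with -0.29 when the animal was a block and -0.62 without the PAP library of animal 2.

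Cdkn1c (chr7:143458339-143461050, minus strand) encodes p57, an imprinted inhibitor. It stood at 6.84, 46.6 and 20.6 CPM in Astro, a wide spread, and had no count in any PAP library. The groups did not overlap. By its Astro mean against the mean floor of 3 counts in PAP, it was at least 18.3-fold lower in PAP. Cdkn1c was lower in 3 of 3 animals, with an adjusted p of 0.0298 by edgeR's quasi-likelihood test. Since it passed the filter on low counts only through Astro, it could differ in no other direction. With Astro thinned to the depth of the smallest PAP library, 12, 78 and 38 counts remained in Astro. The call was lost with the animal as a block (adjusted p = 0.206) and without any 1 Astro library (adjusted p from 0.0989 to 0.133), and kept without any 1 PAP library (0.0350 to 0.0362). Gm44732 on the opposite strand covers 30.7% of the exonic bases of Cdkn1c and was likewise at 0 in all PAP libraries.

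Rb1 (chr14:73183673-73325822, minus strand) encodes the retinoblastoma protein, the substrate of Cdk4 and Cdk6. It stood at 208, 142 and 216 CPM in Astro and at 0, 1.54 and 180 CPM in PAP. The PAP library of animal 3 was within the Astro range, whereas those of animals 1 and 2 held 0 and 3 counts where the third held 548. The technical replicates showed the same division. All 8 were at 0 in animal 1, 6 of 8 were at 0 in animal 2, and each of the 8 had 60 to 81 counts in animal 3. For Rb1 the log2 fold change was -1.63 ± 1.89 (SE), with an adjusted p of 0.653 by edgeR's quasi-likelihood test. Without the PAP library of animal 3 it was -7.99, with an adjusted p of 0.0182, so 1 library decided the call. With the animal as a block it was -5.73, with an adjusted p of 0.241.

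Among the Astro libraries, Rb1 also varied more between technical replicates than counting noise allows. The dispersion index was 3.76, 3.06 and 5.89 in animals 1 to 3. Technical replicates 1 to 4 gave 179, 121 and 201 CPM before TMM scaling, and replicates 5 to 8 gave 205, 142 and 240, so the later set was higher in each animal. Over the 38 combinations of gene and library with at least 40 counts, the index ran from 0.209 to 5.89 with a median of 1.19.

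Of the 8 genes other than Ccnd2, 7 were tested. None was called higher in PAP by edgeR's quasi-likelihood test, while 1 passed an unadjusted p under 0.05 and 1 was called by DESeq2, both times Cdk4. Cdkn1c alone was called lower, 14.3% of the 7, beside 15.4% of all genes tested. Cdk4 alone had all PAP values above all Astro values, and Ccnd3 and Cdkn1c had all PAP values below, where 10.9% and 35.1% of all tested genes did so. Their log2 fold changes had a median of 0.58, against -0.53 for all tested genes. The shares called are near or under the background, and a p that misses the threshold does not show that a gene did not differ.

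Ranked by CPM per kilobase of exonic length, the order of the genes differed between the groups. In Astro, Cdk4 was first with 69.6 ± 10.1 CPM per kilobase (SD, n = 3), followed by Rb1 with 31.3 ± 6.66. Below them Ccnd3 (19.0 ± 1.76), Cdkn1a (15.7 ± 2.85), Ccnd2 (15.4 ± 2.91) and Cdkn1c (12.1 ± 9.90) overlapped, each with its neighbour. Cdkn1b (2.10 ± 0.38), Ccnd1 (0.78 ± 0.47) and Cdk6 (0.02) followed, each separate from the one before.

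In PAP, Ccnd2 came first with 758 ± 182 CPM per kilobase, ahead of Cdk4 with 117 ± 20.1 and Cdkn1a with 23.5 ± 8.63. Ccnd3 came next with 10.98 ± 5.53, and no ranges overlapped down to that point. Rb1 (10.1 ± 17.2), Ccnd1 (4.02 ± 3.48), Cdkn1b (3.75 ± 4.23), Cdk6 (0.11) and Cdkn1c (0) overlapped, each with its neighbour. Per kilobase of principal transcript, Ccnd3 (79.1 ± 7.30) came before Rb1 (40.5 ± 8.61) in Astro with no overlap, and Rb1 then overlapped Cdkn1a. In PAP, Ccnd3 (45.6 ± 23.0) then came before Cdkn1a (40.1 ± 14.7) and overlapped it. Cdk4 was first in Astro, and Ccnd2 and Cdk4 led in PAP, by either length.

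The pathway around the members was followed in a list of 55 genes in 5 groups, of which 52 were tested. Of these, 8 rose in PAP (15.4%, against 5.92% of all tested genes), 5 fell (9.62%, against 15.4%) and 39 were not called. Of its 52 tested genes, 12 had all PAP values above all Astro values and 14 had all below. Over all tested genes the shares were 10.9% above and 35.1% below. The median log2 fold change of the list was 0.38, against -0.53 for all tested genes. With the animal as a block, 3 of the 8 genes that rose kept their call (E2f2, Mdm2 and Btg2) and none of the 5 that fell. The 3 genes not tested were E2f8, Cdkn2a and Cdkn2b.

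The G1/S machinery holds the E2F factors, cyclin E and the relatives of Rb1. In it, 3 of 15 tested genes rose (20%, against 5.92% of all tested genes) and none fell (against 15.4%). At an unadjusted p under 0.05, 5 rose and none fell. By DESeq2, 7 rose and none fell, where 1685 of all 14618 tested genes rose. E2f2, an activating E2F factor, stood at 17.9, 8.00 and 21.8 CPM in Astro and at 1313, 704 and 787 CPM in PAP. All PAP values were far above all Astro values, in 3 of 3 animals. The log2 fold change of E2f2 was 5.87 ± 0.55 (SE), with an adjusted p of 0.00401 by edgeR's quasi-likelihood test and 0.0151 with the animal as a block. It kept its call under all 17 alternatives.

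E2f1, another activating factor, stood at 8.71, 4.85 and 9.50 CPM in Astro and at 195, 79.5 and 166 CPM in PAP, with a log2 fold change of 4.26 ± 0.63 (SE). Its adjusted p of 0.0199 by the same test became 0.123 with the block and 0.0672 to 0.0864 without any 1 Astro library. E2f7, a repressive E2F factor, had 2, 0 and 0 counts in Astro and 48, 3 and 53 in PAP. By its mean over the PAP libraries, it was at least 89.0-fold above the level of 3 counts in Astro. E2f7 was higher in PAP in 3 of 3 animals, although the PAP library of animal 2 held only 3 counts. It passed the filter on low counts only through PAP and could be called in no other direction. Its adjusted p of 0.0262 became 0.206 with the block and 0.101 to 0.143 without any 1 Astro library, and 0.0652 by voom.

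The other genes of this group followed throughout were not called. Cdk2, the kinase of cyclin E, stood at 12.9, 8.35 and 4.29 CPM in Astro and at 11.2, 0 and 4.93 CPM in PAP (adjusted p = 0.822). Ccne1, which encodes cyclin E1, stood at 2.30, 1.05 and 0.10 CPM in Astro and at 65.0, 10.8 and 0 CPM in PAP (adjusted p = 0.250). Ccne2, which encodes cyclin E2, stood at 3.90, 4.26 and 6.47 CPM in Astro and at 14.7, 34.9 and 12.2 CPM in PAP, with no overlap (log2 fold change 2.07, adjusted p = 0.174). DESeq2 called both cyclin E genes higher, with adjusted p of 0.0410 for Ccne1 and 0.00485 for Ccne2.

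The relatives of Rb1 and the repressor E2f4 were uneven in PAP, as Rb1 was. Rbl1, which encodes p107, stood at 6.74, 1.17 and 4.65 CPM in Astro and at 31.5, 0.51 and 0 CPM in PAP (adjusted p = 0.728). Rbl2, which encodes p130, stood at 280, 219 and 239 CPM in Astro and at 88.3, 252 and 40.8 CPM in PAP (log2 fold change -0.96, adjusted p = 0.417). E2f4 stood at 40.8, 36.6 and 38.2 CPM in Astro and at 27.9, 111 and 0 CPM in PAP (adjusted p = 0.946). In each of these genes the PAP libraries lay on both sides of at least 1 Astro value. Without the PAP library of animal 2, Rbl2 was called lower, with a log2 fold change of -1.99 and an adjusted p of 0.0359.

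In the p53 arm, which controls Cdkn1a, 2 of 8 tested genes rose by edgeR's quasi-likelihood test (25%, against 5.92% of all tested genes). None was called lower by it (against 15.4%), with 1 lower at an unadjusted p under 0.05 and 1 by DESeq2. Higher were 3 at an unadjusted p under 0.05 and 4 by DESeq2. Mdm2, which encodes the ligase that degrades p53, stood at 108, 102 and 128 CPM in Astro and at 5447, 2548 and 2303 CPM in PAP. The PAP library of animal 1 was the highest, and no value overlapped. The log2 fold change of Mdm2 was 4.93 ± 0.43 (SE), higher in 3 of 3 animals, with an adjusted p of 0.00309 and 0.0151 with the block, and it kept its call under all 17 alternatives. Btg2, an antiproliferative p53 target, stood at 49.0, 21.7 and 58.5 CPM in Astro and at 2710, 1093 and 1453 CPM in PAP. Its log2 fold change was 5.35 ± 0.59 (SE), higher in 3 of 3 animals, with an adjusted p of 0.00710, which became 0.0619 without the Astro library of animal 1. Trp53 itself, which encodes p53, stood at 33.1, 20.03 and 23.5 CPM in Astro and at 47.2, 0.51 and 5.26 CPM in PAP (adjusted p = 0.865), with PAP values on both sides. Cdkn1a thus had a log2 fold change of 0.58 beside 4.93 for Mdm2 and 5.35 for Btg2, and the difference between these genes was not tested.

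Among genes for the turnover of D-type cyclins and CIP/KIP inhibitors, 1 of 9 tested genes rose (11.1%, against 5.92% of all tested genes). None fell (against 15.4%), nor did any at an unadjusted p under 0.05 or by DESeq2. The gene that rose was Cks1b, which encodes a cofactor of the SCF-Skp2 ligase that degrades p27. It stood at 12.5, 12.7 and 9.70 CPM in Astro and at 367, 172 and 178 CPM in PAP, with no overlap. For Cks1b the log2 fold change was 4.36 ± 0.51 (SE), higher in 3 of 3 animals, with an adjusted p of 0.00914, which became 0.0659 with the block and 0.0672 to 0.0741 without any 1 Astro library. None of the 5 tested genes among the INK4 inhibitors and the CDK-activating kinase was called in either direction by edgeR, at an unadjusted p under 0.05 or by DESeq2.

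Of 15 upstream signals to cyclin D, 2 were higher in PAP (13.3%, against 5.92% of all tested genes) and 5 lower (33.3%, against 15.4%). Their median log2 fold change was -1.09, against -0.53 for all tested genes. Gli1, a transcription factor and target of Hedgehog signalling, stood at 1.66, 1.99 and 2.42 CPM in Astro and at 69.1, 34.4 and 107 CPM in PAP. Its log2 fold change was 5.11 ± 0.83 (SE), with an adjusted p of 0.0208. Myc, a growth-promoting transcription factor, stood at 8.02, 9.93 and 8.99 CPM in Astro and at 206, 80.0 and 152 CPM in PAP, with a log2 fold change of 4.02 ± 0.58 (SE) and an adjusted p of 0.0182. Both were higher in 3 of 3 animals with no overlap. With the block the adjusted p was 0.206 for Gli1 and 0.173 for Myc, and without any 1 Astro library it was 0.0742 to 0.0879 and 0.0672 to 0.0864.

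The genes of this group that fell are receptors, a Hedgehog effector and inhibitors of DNA binding that astrocytes express. Egfr, the receptor of epidermal growth factor, stood at 16.0, 17.2 and 15.6 CPM in Astro and at 0, 0.51 and 0 CPM in PAP, at least 12.1-fold lower (adjusted p = 0.0237). Gli2, an effector of Hedgehog signalling, stood at 17.5, 9.46 and 16.4 CPM in Astro and at 0, 0 and 0.99 CPM in PAP, at least 10.7-fold lower (adjusted p = 0.0497). Egfr and Gli2 passed the filter on low counts only through Astro and could be called in no other direction. Id4, an inhibitor of DNA binding, stood at 1385, 1293 and 1136 CPM in Astro and at 26.9, 63.1 and 160 CPM in PAP, with a log2 fold change of -3.93 ± 0.68 (SE) and an adjusted p of 0.0208. Each was lower in 3 of 3 animals with no overlap. The remaining genes that fell, Fgfr1 (log2 fold change -3.57, adjusted p = 0.0220) and Id2 (-3.13, adjusted p = 0.0291), fell outside the rule for naming and are given after their values were seen. None of the 5 was called with the block, where the adjusted p was 0.067 for Id4 and 0.1802 to 0.206 for the others. None was called without any 1 Astro library (0.0688 to 0.154). Gli2 was not called without the PAP library of animal 2 (0.0508) and Id2 likewise (0.0681). Gli2 also lost its call with scaling by library size alone (0.0519), with no filter on low counts (0.0712) and in technical replicates 1 to 4 (0.0655). By voom Id4 (0.0626) and Id2 (0.132) were not called.

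**Figure D3:**
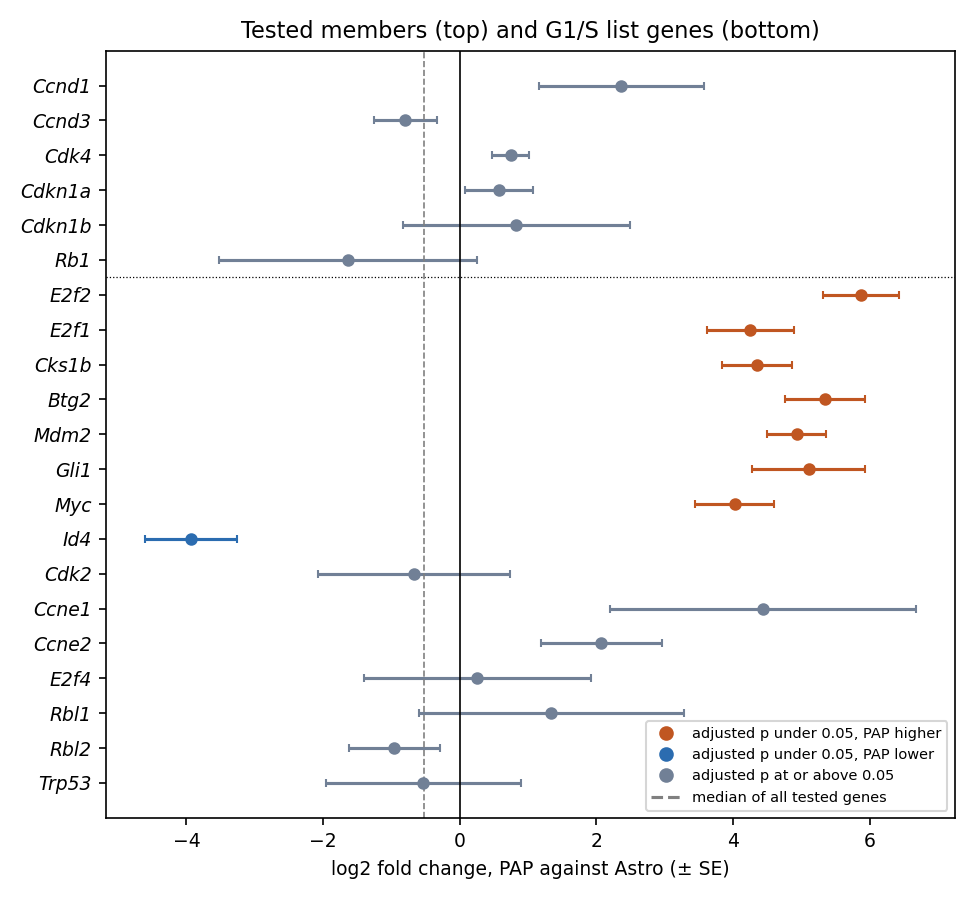
Log2 fold change of PAP against Astro with its standard error for the 6 tested members with a fitted fold (top; Ccnd2 is left out because it was not tested) and the named genes of the G1/S list (bottom), coloured by edgeR call. The 7 list genes plotted that rose lie between 4.02 and 5.87, Id4 lies at -3.93, no member above the dotted line was called, and the dashed line marks the median of all tested genes at -0.53.

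The PAP library of animal 1 had the highest level of Mdm2, E2f2, E2f1, E2f7, Cks1b, Btg2 and Myc, and also the highest B-lineage sum and cycling cell sum. Gli1, the remaining list gene that rose, was highest in that of animal 3, where the B-lineage sum was lowest. The B-lineage sum was 7137, 4200 and 3233 CPM and the cycling cell sum 1443, 652 and 645 CPM in the PAP libraries of animals 1 to 3. The astrocyte sum stood in the opposite order at 4772, 10000 and 17054 CPM. Their part in the result was not tested. Markers of adult-born neuroblasts and progenitors summed to 27.6 to 42.4 CPM in Astro and to 136, 56.4 and 2.63 CPM in PAP. Of the 136 CPM in animal 1, 106 were Dcx, which held 209, 2 and 1 counts in PAP and was not tested. Neurod1 and Sox11 were lower in PAP in 3 of 3 animals, near the floor at 0, 5 and 0 counts and 7, 0 and 0 counts. None of the 5 markers tested was called by edgeR or DESeq2, or at an unadjusted p under 0.05. By voom 1 was called lower.

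**Figure D4:**
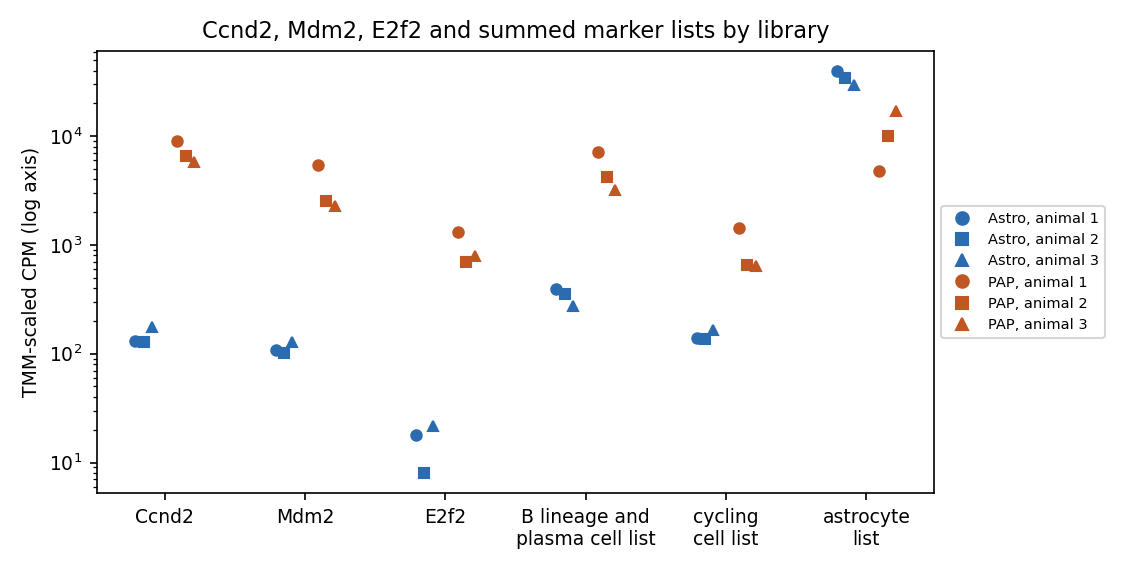
TMM-scaled CPM on a log axis of Ccnd2, Mdm2 and E2f2 and summed CPM of the B-lineage and plasma cell, cycling cell and astrocyte marker lists, by library; points are animals, blue for Astro and orange for PAP. All 3 PAP libraries lie above all Astro libraries in the first 5 columns and below them in the astrocyte column, where Astro spans 29810 to 39844 CPM and PAP 4772 to 17054 CPM.

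The genes whose pattern over the 6 libraries was most like that of Ccnd2 were sought among 2222 tested genes with a mean of at least 100 CPM. Likeness was the root mean square difference in log2(CPM + 1) after each gene was centred on its mean. The nearest were Dbf4 (0.11), which encodes the activator of the Cdc7 replication kinase, Pgam2 (0.14), a muscle-type phosphoglycerate mutase, and Gm8730 (0.15), a predicted gene. Mafg (0.18), a small Maf transcription factor, and Pabpc1 (0.22), the cytoplasmic poly(A)-binding protein, came next. Dbf4 stood at 4.60, 5.20 and 7.12 CPM in Astro and at 351, 301 and 277 CPM in PAP. Each of the genes named was under 100 CPM in every Astro library and entered the search only through its PAP level. A higher level in PAP was therefore fixed by the filter. The likeness uses Ccnd2 values that entered the choice of genes. It is a description over 6 libraries that share their depth difference with the groups.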

How the data were processed

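Per the labels' protocols, RNA was amplified with the SMART-Seq v4 kit and libraries were made with Nextera XT, which does not mark strand. The submitters' processing notes name bcl2fastq 2.18.0.12, Trim Galore 0.4.1, STAR 2.5.2b, SAMtools, HTSeq 0.5.3 and the mm10 genome. Annotation release, strand setting and the treatment of multi-mapping reads are not given in the sources used here. Per the file headers, the deposited values are an ID and a count per gene, and they are raw counts. Molecular identifiers are not mentioned, so the floor of 3 counts covers counting error only.

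Counts were summed over the 8 technical replicates of a library, giving n = 3 per group, each with the depth stated in the results. Symbols and positions came from GENCODE M21 (GRCm38), which held 47224 of the 47643 IDs (99.12%). The edgeR 4.0.16 quasi-likelihood test in R 4.3.3 tested the difference PAP minus Astro with group as the only term, after filterByExpr with a minimum count of 10 and TMM scaling, with Benjamini-Hochberg adjustment over 14618 genes and a threshold of 0.05. Where no library of a group exceeded 3 counts of a gene, only a bound on its fold was computed. The bound set the mean of the other group against the mean floor and does not hold for each animal. Alternatives were limma 3.58.1 (voom with a weight per group), DESeq2 1.42.0, other scalings and filters, thinning to 1829962 counts, subsets of technical replicates, leaving out libraries and the animal as a block. Principal transcript length in place of merged exonic length was added after seeing the data.

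The pairing comes from the labels, which give the same numbers, C1 to C3, to both compartments. A shared number was read as the same animal. Deviations from the group means correlated between libraries of the same animal at 0.034, 0.019 and -0.033. Between libraries of different animals the correlations ran from -0.061 to 0.038, a range that covers these values.

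The 9 members and the lists were chosen with earlier results of these data known. Named list genes were those called, at most 3 per group and direction by size of the log2 fold change, plus Cdk2, Ccne1, Ccne2, E2f1, E2f4, Rbl1, Rbl2 and Trp53. The other marker lists, with their summed CPM in Astro and PAP, were neurons (710 to 1357 and 478 to 1373), oligodendrocytes (819 to 901 and 609 to 1029), their precursors (389 to 455 and 0 to 274), microglia (46.3 to 97.2 and 32.3 to 96.7), endothelial cells (12.7 to 28.7 and 15.4 to 24.4), mural cells (24.7 to 48.8 and 5.08 to 28.0) and erythroid cells (12.6 to 22.1 and 2.63 to 454). The marker lists hold a gene that is not reported here.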

Additional observations from a re-analysis of the deposited data

How the results depend on the processing

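Over 17 alternatives, the 3115 genes called became 5141 by DESeq2's Wald test, 1414 with a mean of at least 100 counts, 1706 at equal depth and 115 to 4586 when 1 library was left out. With the replicate block they became 133, and 167 at equal depth with the block, fits that have fewer residual degrees of freedom. Members called higher went from 0 to 1 by DESeq2 (Cdk4). Members called lower went from 1 to 0 with the replicate block and at equal depth with the block, and ran from 0 to 2 when 1 library was left out. List genes called higher went from 8 to 14 by DESeq2, to 3 with the replicate block and to 3 at equal depth with the block, and ran from 2 to 10 when 1 library was left out. List genes called lower went from 5 to 3 by voom, to 0 with the replicate block and 1 at equal depth with the block, and ran from 0 to 8 when 1 library was left out. The cause of these differences was not tested. Per principal transcript length, an alternative chosen after seeing the data, the mean shares of the D-type cyclins went from 43.6% to 22.2% (Ccnd2), 54.3% to 76.9% (Ccnd3) and 2.12% to 0.91% (Ccnd1) in Astro, and from 97.9% to 95.4% (Ccnd2) and 1.56% to 4.22% (Ccnd3) in PAP.

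Of the named genes, 3 changed sign in the log2 fold change, and none of these was called. Cdkn1b (0.83) was -0.85 by voom, -0.29 with the replicate block and ran from -0.62 (without PAP replicate 2) to 1.35 (without PAP replicate 3). E2f4 (0.26) was -1.99 by voom, -1.20 with the block, -0.92 at equal depth with the block, -0.029 in technical replicates 5 to 8 and ran from -1.54 (without PAP replicate 2) to 0.78 (without PAP replicate 3). Rbl1 (1.34) was -0.89 by voom, -1.23 with the block and ran from -4.28 (without PAP replicate 1) to 1.88 (without Astro replicate 1). The cause was not tested. Scaling by library size alone shifted the median log2 fold change of all genes by 0.15, and no named gene changed direction with a scaling. Depth limits what can be said of Cdk6 and of PAP values near 1 CPM.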
